A study of Homo sapiens with 12 samples.

Results

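The genes described here are 56 splicing factors chosen by name. They are the SR proteins and their relatives, the hnRNP proteins, the U2 snRNP proteins with the factors of the 3′ splice site, the PRPF proteins, the U1 A and Sm proteins, and the CLK kinases with the arginine methylation enzymes. Of these genes, 55 were listed among the 23434 genes of the count table, and SRSF8 was not analysed here. Their newly made RNA was measured by EU-seq, in which RNA made during a pulse of 5-ethynyl-uridine is captured and sequenced. The cells were U2OS-MycER, a human osteosarcoma line that carries a chimera of Myc and the estrogen receptor, which 4-hydroxytamoxifen (OHT) activates. The 12 libraries fall into 4 groups of 3, which are shNT (a non-targeting shRNA), shNT_OHT (the same with OHT at 300 nM for 40 h), shCDK12 (an shRNA against CDK12, a kinase of elongating RNA polymerase II), and shCDK12_OHT (that shRNA with OHT). Every group received doxycycline at 1 µg/mL to switch on the shRNA and nocodazole at 100 ng/mL for 8 h. Mitotic cells were shaken off, released for 12 h, and labelled with 0.5 mM 5-ethynyl-uridine for the last 2 h. The labels do not say whether the libraries of a group came from separate cultures.

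Splicing removes introns while RNA polymerase II is still transcribing. SR proteins bind exonic sequences and recruit spliceosome components, whereas many hnRNP proteins bind the same RNAs and counter or redirect splice site choice. The U1 snRNP marks the 5′ splice site, U2AF and the U2 snRNP mark the 3′ end of the intron, and the tri-snRNP with its PRPF proteins completes the spliceosome. Sm proteins form the ring around the spliceosomal RNAs, and PRMT5 with WDR77 methylates Sm proteins before that ring is built. Several SR genes carry ultraconserved exons that tune their own mRNA. Genes of the splicing machinery are known Myc targets.

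Library totals ran from 1251695 to 10447836 counts, and the 55 genes took 0.909% to 1.21% of them. Levels are given as CPM, counts per 1000000 scaled by TMM, a normalization that treats the bulk of genes as unchanged. Thus each value is relative to the rest of the newly made RNA, and fewer cells making a transcript cannot be told apart from less of it per cell. CDK12 itself was at 304 ± 17.4 CPM in shNT (SD, n = 3), 397 ± 38.7 in shNT_OHT, 289 ± 10.9 in shCDK12 and 214 ± 5.09 in shCDK12_OHT. It was lower in shCDK12_OHT than in shNT_OHT (log2 fold change -0.90, adjusted p = 9.12e-05), but not in shCDK12 than in shNT (-0.04, adjusted p = 0.724). CDK12 was higher in shNT_OHT than in shNT (adjusted p = 0.0347), a call lost without any shNT replicate or shNT_OHT replicate 3. In shCDK12_OHT against shCDK12 its log2 fold change ran from -0.53 to -0.44 when single libraries were left out. The 6 libraries are therefore named by their labels, shCDK12 and shCDK12_OHT, throughout. Whether the labels of these groups were exchanged was not tested. Every comparison below that uses these libraries depends on the labels. MYC, also read as a check, was at 2093 ± 112 CPM in shNT and 1967 ± 248 in shNT_OHT. It was at 1124 ± 89.8 in shCDK12 and 2062 ± 53.5 in shCDK12_OHT. Replicate 1 of shNT_OHT stood apart from the other two of its group. The chi-square per degree of freedom of its counts over genes was 8.84 and 9.46 against them, whereas it was 2.72 to 7.02 between the other pairs of libraries within a group. The counts of called splicing genes that it enters are therefore also given without it. The shares over all genes beside them are those with all libraries. Of the 6 mesenchymal and bone markers read, VIM, COL1A1, SPARC and RUNX2 were present in every library, and COL1A2 and TWIST1 were near 0. Summed, the 6 stood at 828 to 920 CPM in shNT, 663 to 706 in shNT_OHT, 362 to 371 in shCDK12 and 459 to 476 in shCDK12_OHT, so they moved with the groups. The 3 epithelial markers summed to 8.52 to 11.7, 9.90 to 12.8, 13.5 to 15.2 and 9.64 to 10.8 CPM in the same order, with KRT19 at 0 in all 12 libraries, CDH1 in every library, and EPCAM at a mean of 0.82 in shNT and 8.03 in shCDK12. The 2 neuron markers, SYN1 and RBFOX3, summed to 13.5 to 15.6, 6.60 to 10.3, 5.74 to 6.95 and 4.35 to 7.34 CPM in that order. The leukocyte markers summed to at most 2.15 CPM in any library, and the hepatocyte marker ALB was at most 1.37. The part of these shifts in the results below was not tested.

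OHT raised part of the splicing genes in shNT libraries. In shNT_OHT against shNT, 11 of the 55 genes were higher and 0 lower at an adjusted p under 0.05 in edgeR's quasi-likelihood test (20.0% called), against 17.4% called among all 10272 genes tested, of which 9.11% were higher and 8.27% lower. The 11 genes were SRSF1, SRSF4, SRSF7, HNRNPAB, HNRNPF, HNRNPL, PRPF19, PRPF38B, SNRPB, PRMT1 and PRMT5. The median log2 fold change of the 55 genes was 0.24, against -0.03 over all genes tested, and 43 of them were above 0. The count of 11 rests on single libraries. It was 5, 6 and 5 without shNT replicate 1, 2 and 3, and 20, 17 and 7 without shNT_OHT replicate 1, 2 and 3.

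In shCDK12 against shNT, 27 genes were higher and 6 lower (60.0% called), close to the 61.9% called among all 11718 genes tested, of which 31.3% were higher and 30.6% lower. The median log2 fold change was 0.26, against 0.01 over all genes. With OHT in both groups the direction was the other one. In shCDK12_OHT against shNT_OHT, 0 genes were higher and 26 lower (47.3% called), against 45.4% called among 11668 genes, split evenly at 22.7% higher and 22.7% lower. The median was -0.35, against 0.02 over all genes, and 33 genes were called without shNT_OHT replicate 1. Thus in both comparisons the share called was near that of all genes, and the split between higher and lower was not.

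In shCDK12_OHT against shCDK12, 35 genes were lower and 1 was higher (65.5% called), against 49.0% called among 12519 genes, of which 23.6% were lower. The median was -0.38, against 0.02 over all genes, and 50 of the 55 genes were below 0. The difference between the OHT responses was tested as the interaction of OHT and shRNA, that is the log2 response in shCDK12 libraries minus that in shNT libraries. The interaction was lower than 0 for 36 genes and higher for 1 (67.3% called), against 45.1% called among 11699 genes, of which 21.9% were lower. Its median was -0.63, against 0.04 over all genes, and 40 genes were called without shNT_OHT replicate 1.

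**Figure D1:**
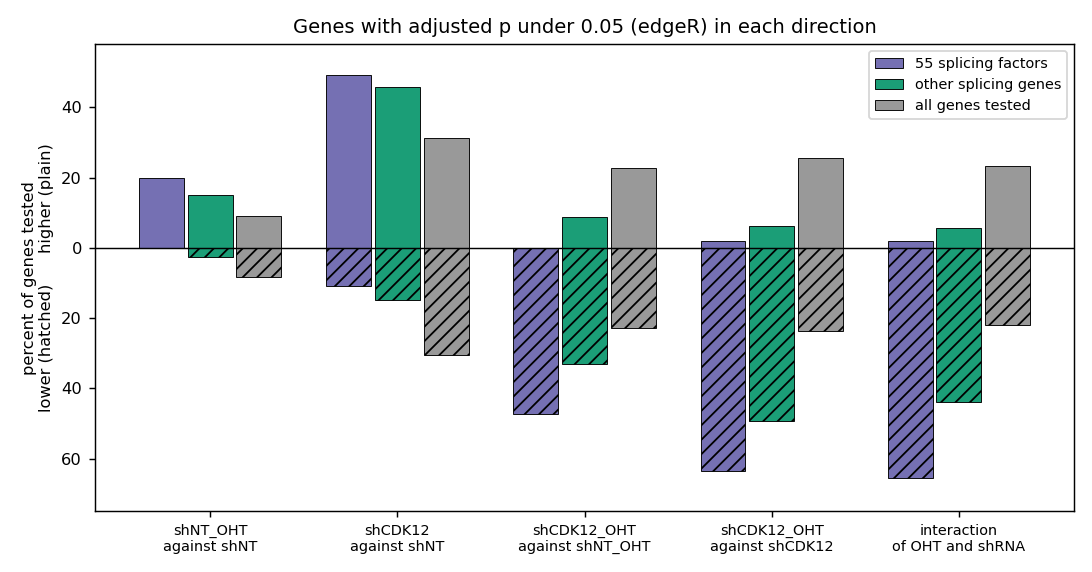
Percent of genes tested that were higher (plain bars, upward) or lower (hatched bars, downward) at an adjusted p under 0.05 in edgeR, for the 55 splicing factors, the other splicing genes and all genes tested, in each of the 5 comparisons. The 55 genes lean upward in shNT_OHT and in shCDK12 against shNT (20.0% and 49.1% higher), and downward in the other 3 comparisons (47.3%, 63.6% and 65.5% lower).

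The OHT responses in the shNT libraries and in the shCDK12 libraries, as labelled, share no library. In them, 10 genes were higher with OHT in the first and lower with OHT in the second, against 7.02% of the 10231 genes tested in every comparison. These 10 were HNRNPAB, HNRNPL, PRMT1, PRMT5, PRPF19, PRPF38B, SNRPB, SRSF1, SRSF4 and SRSF7. HNRNPF was higher in the first only, SF3A1 was higher in the second only, 25 genes were lower in the second only (17.4% of all genes were), and 18 were called in neither (44.3% of all genes). The count of 10 rests on single libraries. It was 4, 5 and 4 without shNT replicate 1, 2 and 3, and 16, 14 and 6 without shNT_OHT replicate 1, 2 and 3, while it was 9 to 11 without any one of the other 6 libraries. No gene was called in the same direction in both, as was the case for 0.313% of all genes. Across the 55 genes the log2 responses had r = -0.48 (Spearman's rho -0.46), and across all 10233 genes tested in both r = -0.62. These correlations are across genes that share the same 12 libraries, and are a description.

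**Figure D2:**
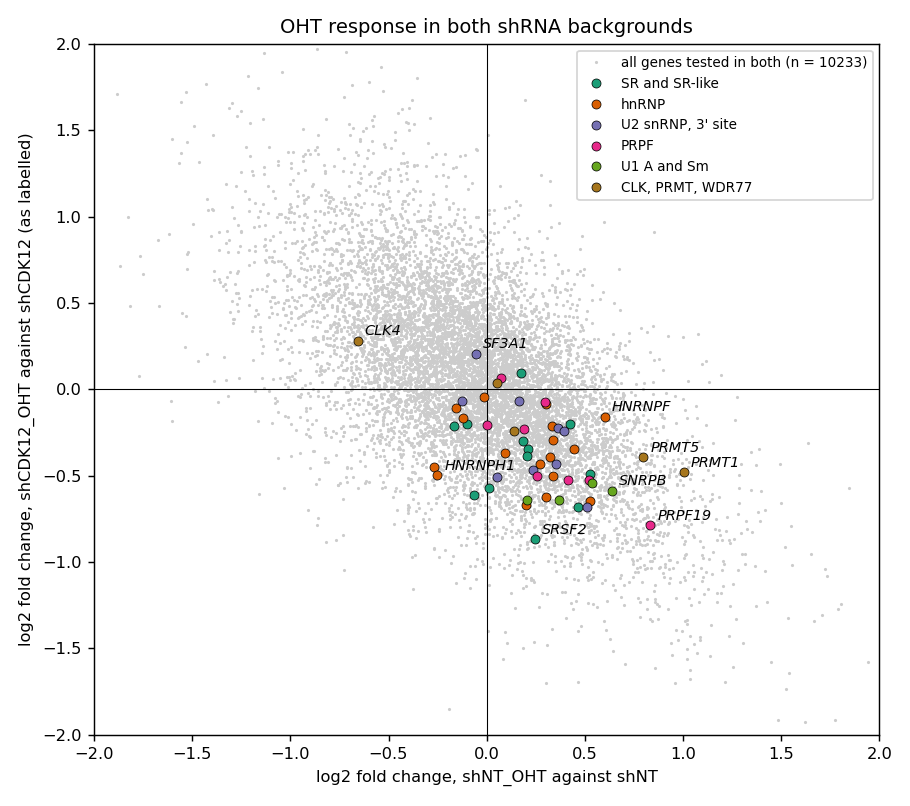
Each point is a gene, with its log2 fold change in shNT_OHT against shNT on the horizontal axis and in shCDK12_OHT against shCDK12 on the vertical axis; the 55 splicing factors are coloured by role and all genes tested in both are grey (31 lie outside the axes). PRMT1 (1.00 and -0.48) and PRPF19 (0.83 and -0.79) lie at the lower right, whereas CLK4 (-0.66 and 0.28) lies at the upper left.

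The shRNA comparisons without OHT and with OHT, as labelled, share no library either. In them, 12 genes were higher in shCDK12 than in shNT and lower in shCDK12_OHT than in shNT_OHT, against 5.41% of all 10231 genes. They were HNRNPA2B1, HNRNPAB, HNRNPF, HNRNPL, PRMT1, PRMT5, PRPF19, PRPF38B, SF3A3, SRSF1, SRSF2 and SRSF7. The count of 12 was 7 without shCDK12_OHT replicate 1 or 2, 8 without shNT_OHT replicate 3, 14 without shNT_OHT replicate 1, and 9 to 13 without any other single library. Another 15 were higher in the first and not called in the second (15.0% of all genes were), and 8 were lower in the second alone (7.4% of all genes). HNRNPA0, HNRNPUL1, SF3A1, SF3B2, SNRPA and WDR77 were lower in both and none was higher in both, against 21.8% of all genes called in the same direction in both. Split by direction, 11.9% of all genes were lower in both and 9.97% were higher in both. Without shNT_OHT replicate 1, 1 of the 55 genes was higher in both.

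**Figure D3:**
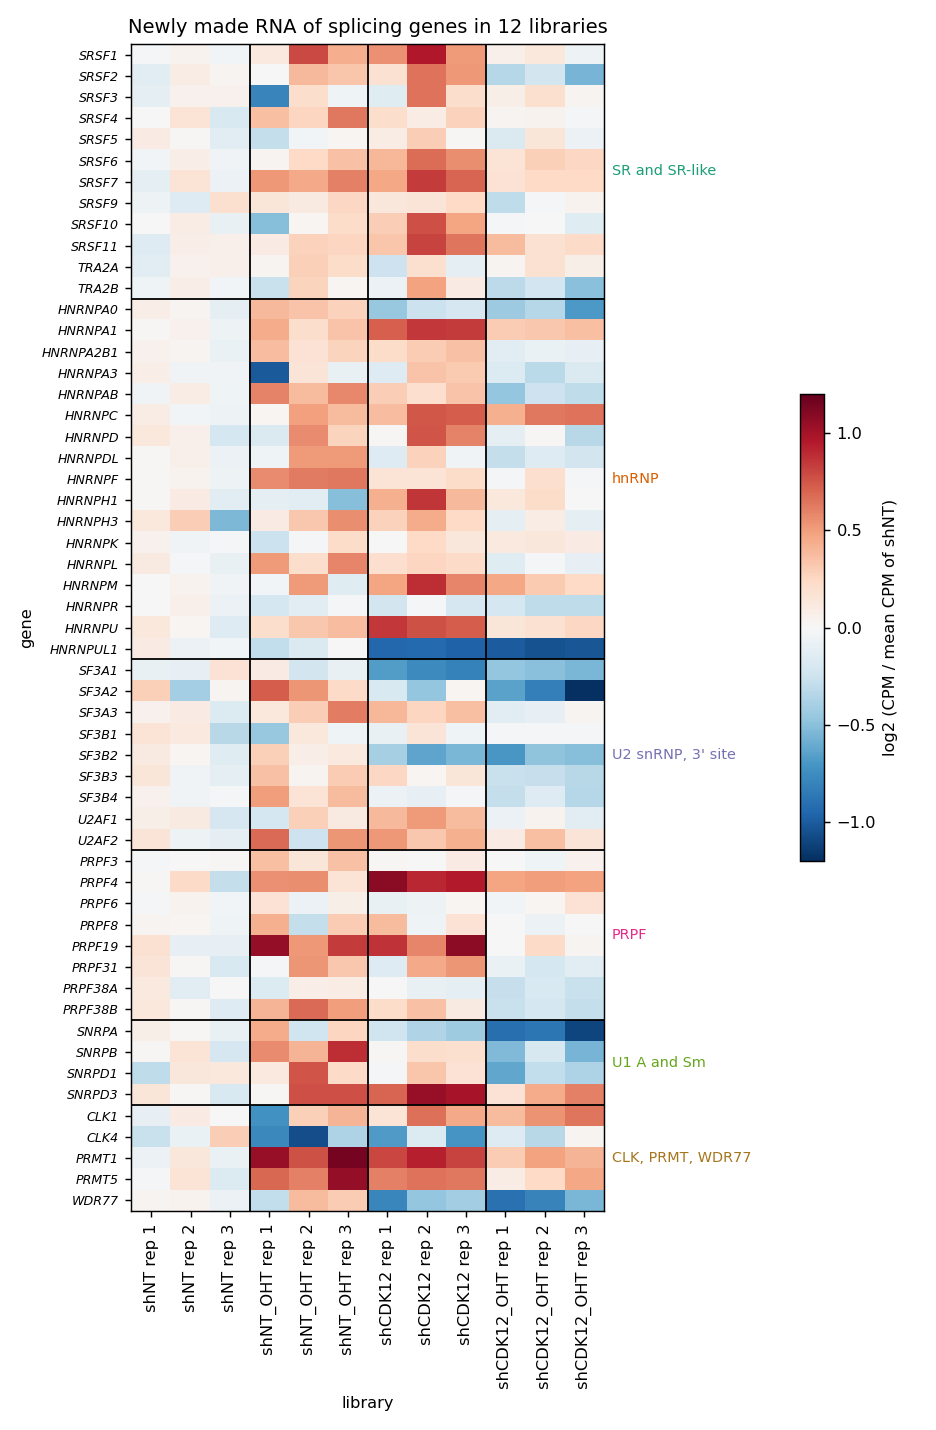
Heat map of the 55 genes (rows, by role) in the 12 libraries (columns), with colour giving log2 of CPM over the mean CPM of the shNT libraries (red higher, blue lower). The shNT_OHT and shCDK12 columns are mostly red, and the shCDK12_OHT columns are mixed. Several genes, HNRNPUL1, SF3A1, SF3B2, SNRPA, WDR77 and HNRNPA0 among them, stay blue in all 6 columns labelled shCDK12 or shCDK12_OHT.

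Since the OHT comparison asks about Myc, the promoters of these genes were searched for the canonical E-box, CACGTG, a palindrome that Myc with its partner Max binds. The windows were the 300 bases from 250 before to 50 after each RefSeq start in GRCh38.p14, and 49 of the 55 genes had one or more. CACGTG was in 11 of 65 windows (16.9%), against 18 of 152 windows of the other splicing genes (11.8%), 9.52% of the windows of genes tested in shNT_OHT against shNT, and 7.26% of all 35116 windows. It lay in windows of CLK4, HNRNPA3, HNRNPD, HNRNPDL, HNRNPH3, HNRNPM, HNRNPUL1, SF3B1 and WDR77. None of these 9 genes was among the 11 that rose with OHT in shNT libraries, whose 14 windows held 0. Of the 8 genes with a window that were called in no comparison, SF3B1 alone held CACGTG. SF3B1 has overlapping windows that hold the same site, which is counted in each. The windows below are those of the pair of genes with the largest OHT rise among the 55, PRPF19 (chr11:60906536-60906835, minus strand) and PRMT1 (chr19:49677021-49677320, plus strand), and of SF3B1 (chr2:197435044-197435343, minus strand), called in none of the 5 comparisons. Capitals mark CACGTG, which begins 43 bases before the start in SF3B1 and is absent from the other two windows.
PRPF19: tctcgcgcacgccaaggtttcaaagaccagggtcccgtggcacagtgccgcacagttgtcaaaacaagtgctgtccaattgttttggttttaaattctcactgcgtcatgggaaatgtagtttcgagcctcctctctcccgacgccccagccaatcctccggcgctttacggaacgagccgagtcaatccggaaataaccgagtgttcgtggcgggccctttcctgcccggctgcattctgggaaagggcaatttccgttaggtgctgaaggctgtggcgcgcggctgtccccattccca
PRMT1: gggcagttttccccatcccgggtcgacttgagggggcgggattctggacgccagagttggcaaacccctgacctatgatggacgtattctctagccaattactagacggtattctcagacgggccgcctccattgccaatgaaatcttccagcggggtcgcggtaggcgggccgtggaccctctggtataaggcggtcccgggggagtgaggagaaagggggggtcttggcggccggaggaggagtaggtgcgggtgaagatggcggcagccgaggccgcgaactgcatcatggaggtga
SF3B1: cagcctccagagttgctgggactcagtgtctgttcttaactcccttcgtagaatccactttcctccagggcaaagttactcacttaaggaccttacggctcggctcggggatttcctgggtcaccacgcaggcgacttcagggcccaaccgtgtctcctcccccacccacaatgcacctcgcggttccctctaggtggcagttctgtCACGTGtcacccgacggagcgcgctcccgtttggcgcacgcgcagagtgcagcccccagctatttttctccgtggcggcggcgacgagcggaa

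Of the 12 SR and SR-like genes, 3 were higher in shNT_OHT, 7 were higher in shCDK12, and the interaction was lower than 0 for 8, with all 12 estimates below 0. Without shNT_OHT replicate 1, 5 were higher in shNT_OHT and 9 interactions were lower than 0. Of all genes tested, 17.4% were called in shNT_OHT against shNT, 61.9% in shCDK12 against shNT and 45.1% in the interaction. The share of SR genes called in shCDK12 against shNT, 58.3%, was thus not above that of all genes. SRSF7, which binds purine-rich exonic RNA and also takes part in mRNA export, was at 156, 188 and 160 CPM in shNT, 241, 231 and 256 in shNT_OHT, 231, 301 and 272 in shCDK12, and 189, 199 and 198 in shCDK12_OHT. The shNT libraries lay below those of shNT_OHT and shCDK12 with no overlap, and shCDK12_OHT lay between. Its log2 fold change was 0.53 ± 0.12 (SE) in shNT_OHT (adjusted p = 0.00881), 0.71 ± 0.10 in shCDK12 (4.4e-07), and -0.49 ± 0.09 in shCDK12_OHT against shCDK12 (0.000107), and the interaction was -1.05 ± 0.14 (adjusted p = 6.75e-06). SRSF1, the founding SR protein and a factor in both constitutive and alternative splicing, was at 218, 226 and 215 CPM in shNT, 238, 381 and 298 in shNT_OHT, 320, 427 and 313 in shCDK12, and 229, 239 and 210 in shCDK12_OHT. The shNT_OHT libraries were the most scattered, with replicate 1 beside the shCDK12_OHT libraries. It was higher in shCDK12 than in shNT (0.72 ± 0.10, adjusted p = 3.96e-07) and lower in shCDK12_OHT than in shCDK12 (-0.68 ± 0.10, adjusted p = 1.42e-05), with an interaction of -1.17 ± 0.19 (adjusted p = 3.98e-05).

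SRSF2, an SR protein of the nuclear speckles, was at 174, 202 and 195 CPM in shNT, 191, 249 and 239 in shNT_OHT, 216, 299 and 272 in shCDK12, and 150, 163 and 129 in shCDK12_OHT. The 3 shCDK12_OHT libraries were below all other 9. In shCDK12_OHT it fell by 0.87 ± 0.10 against shCDK12 (adjusted p = 1.39e-06) and by 0.62 ± 0.13 against shNT_OHT (adjusted p = 0.00367), on the log2 scale. The first was the largest fall among the 55 genes in that comparison, and the interaction was -1.14 ± 0.17. SRSF2 lies over MFSD11, and whether the counting used strand is not given in the sources used here, so its counts could hold reads of that gene. SRSF6, SRSF10 and SRSF11 were higher in shCDK12 than in shNT by 0.56 to 0.65 on the log2 scale and lower in shCDK12_OHT than in shCDK12. SRSF3 was higher in shCDK12 only (0.31, adjusted p = 0.0205), a call lost without shNT replicate 1, shNT replicate 2 or shCDK12 replicate 2 (adjusted p = 0.0787 to 0.355). Without shCDK12 replicate 2 its log2 fold change was 0.093, and it was not called in DESeq2 (0.243) or in a joint fit of the 12 libraries (0.146). SRSF5, SRSF9 and TRA2A were called in no comparison.

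Several of the SR calls depended on single libraries. In shNT_OHT against shNT, SRSF1 lost its call without any shNT replicate and without shNT_OHT replicate 2 or 3 (adjusted p = 0.0724 to 0.145). SRSF4 lost it without any shNT replicate or shNT_OHT replicate 3 (0.104 to 0.188), and SRSF7 without shNT replicate 1 or 3 (0.0724 and 0.0522). Without shNT_OHT replicate 1, SRSF2 was called as well (0.0184). In shCDK12_OHT against shNT_OHT, SRSF1, SRSF4, SRSF7 and TRA2B each lost their call without any shCDK12_OHT replicate and without shNT_OHT replicate 3, and SRSF1 and TRA2B without shNT_OHT replicate 2 as well (adjusted p = 0.0587 to 0.201 over these fits). SRSF7 lost that call with thinned counts too (0.288). SRSF4 in shCDK12_OHT against shCDK12 lost its call without shCDK12 replicate 1 or 3 or any shCDK12_OHT replicate (0.0712 to 0.171). The interaction of SRSF10 was lost without shNT replicate 1, shNT_OHT replicate 3, shCDK12 replicate 2 or shCDK12_OHT replicate 3 (0.0536 to 0.117). The interactions of SRSF1, SRSF2 and SRSF7 kept their call without each of the 12 libraries in turn.

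**Figure D4:**
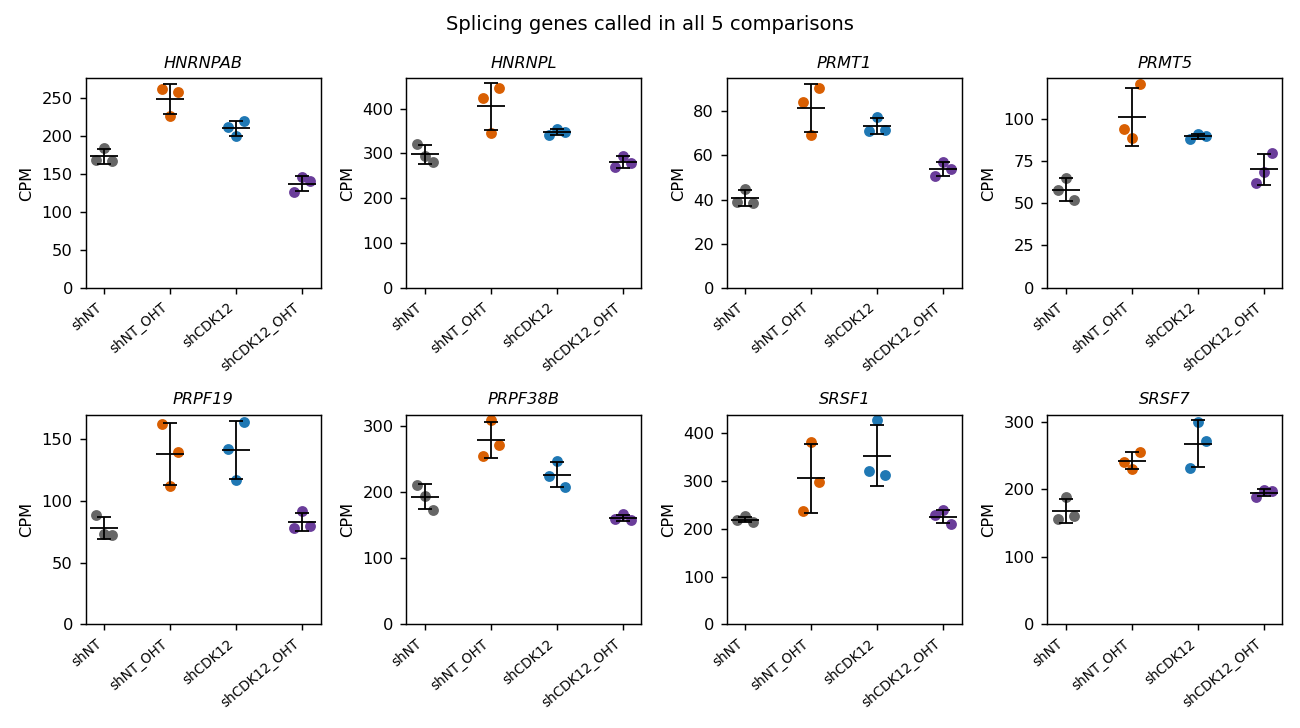
CPM of the 8 genes called in all 5 comparisons, with a dot for each library, a horizontal bar for the mean and error bars of 1 SD (n = 3). All but PRPF38B are higher in every shNT_OHT and shCDK12 library than in any shNT library. HNRNPAB and PRPF38B are lower in every shCDK12_OHT library than in any other.

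Of the 17 hnRNP genes, 3 were higher in shNT_OHT, 10 were higher and 2 lower in shCDK12, and the interaction was lower than 0 for 11. Without shNT_OHT replicate 1, 7 were higher in shNT_OHT and 12 interactions were lower than 0. The shares called with all libraries were 17.6%, 70.6% and 64.7% in the same order, against 17.4%, 61.9% and 45.1% of all genes tested. HNRNPAB, a relative of HNRNPD that binds AU-rich RNA, was at 168, 184 and 167 CPM in shNT, 262, 226 and 259 in shNT_OHT, 212, 200 and 219 in shCDK12, and 126, 146 and 140 in shCDK12_OHT. No group overlapped another. Its log2 fold change was 0.52 ± 0.12 in shNT_OHT (adjusted p = 0.00817), 0.31 ± 0.09 in shCDK12 (0.00334), -0.87 ± 0.11 in shCDK12_OHT against shNT_OHT (0.000165) and -0.65 ± 0.08 against shCDK12 (2.97e-06). The interaction of -1.21 ± 0.14 had the smallest adjusted p of the 55 genes, 7.9e-07. HNRNPAB overlaps PHYKPL, with the same limit on strand as above.

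HNRNPF, which binds G-rich RNA, had the highest level per kilobase of exon of the 55 genes in shNT. It was at 777, 793 and 739 CPM in shNT, 1137, 1182 and 1190 in shNT_OHT, 861, 864 and 899 in shCDK12, and 759, 888 and 761 in shCDK12_OHT. The shNT_OHT libraries stood above all others by a wide gap, and the remaining groups were close. Its rise with OHT in shNT libraries (0.60 ± 0.09, adjusted p = 0.00066) had the smallest adjusted p of the 55 genes in that comparison, and the interaction was -0.79 ± 0.11 (1.17e-05). With OHT in shCDK12 libraries its estimate was -0.16 (0.087).

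HNRNPU, a scaffold attachment protein that also binds pre-mRNA, was at 330, 308 and 272 CPM in shNT, 352, 380 and 393 in shNT_OHT, 546, 516 and 502 in shCDK12, and 335, 345 and 361 in shCDK12_OHT. The 3 shCDK12 libraries were above all other 9. It rose by 0.81 ± 0.08 in shCDK12 against shNT (adjusted p = 3.25e-09) and fell by 0.62 ± 0.07 in shCDK12_OHT against shCDK12 (1.19e-06), and the interaction was -0.95 ± 0.13. HNRNPA1, a well-known antagonist of SR proteins at exonic silencers, changed in a like way (0.83 and -0.50). HNRNPC and HNRNPM also rose in shCDK12 (0.66 and 0.71). HNRNPA1, HNRNPC and other hnRNP genes have processed copies elsewhere in the genome, between which reads may have been split or lost.

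HNRNPUL1, an hnRNP U relative, was lower by 0.91 ± 0.09 in shCDK12 against shNT (adjusted p = 6.11e-10) and by 0.87 ± 0.11 in shCDK12_OHT against shNT_OHT (0.000134). Its means were 325, 292, 168 and 160 CPM in shNT, shNT_OHT, shCDK12 and shCDK12_OHT, with an interaction of 0.02 (adjusted p = 0.935). HNRNPA0 was lower in both shRNA comparisons too (-0.27 and -0.82). HNRNPH1 was higher in shCDK12 (0.61) and lower in shCDK12_OHT than in shCDK12 (-0.50), with an interaction that was not called (-0.27, adjusted p = 0.269). HNRNPK and HNRNPR were called in no comparison.

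In shNT_OHT against shNT, HNRNPAB lost its call without shNT replicate 1 (adjusted p = 0.0618) or 2 (0.0507), and HNRNPL without any shNT replicate or shNT_OHT replicate 3 (0.058 to 0.126). HNRNPF kept it without each library in turn, and HNRNPU gained one without shNT_OHT replicate 1 (0.0161). In shCDK12 against shNT, HNRNPF lost its call without shNT replicate 2 or 3 (0.0517 and 0.0544), HNRNPL without shNT replicate 2 (0.064), HNRNPA0 without shCDK12 replicate 1 (0.0551) and HNRNPD without shCDK12 replicate 2 (0.0926). In shCDK12_OHT against shNT_OHT, HNRNPA2B1 lost its call without shCDK12_OHT replicate 1 or 2 (0.0594 and 0.0513). In shCDK12_OHT against shCDK12, HNRNPM lost its call without shCDK12 replicate 2 or shCDK12_OHT replicate 2 or 3 (0.112 to 0.155) and HNRNPDL without shCDK12_OHT replicate 1 (0.0646), while HNRNPF gained one without shCDK12 replicate 2 (0.0235) or shCDK12_OHT replicate 2 (0.0342). The interactions of HNRNPAB, HNRNPF and HNRNPU kept their call in every such fit, that of HNRNPC (-0.41, adjusted p = 0.0491) was lost in 10 of 12, up to 0.131, and that of HNRNPD was lost without shCDK12 replicate 2 (0.0507).

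Of the 9 genes of the U2 snRNP and the 3′ splice site, 0 were called in shNT_OHT against shNT (17.4% of all genes tested were). Their estimates were above 0 for 7 genes. In shCDK12_OHT against shNT_OHT, 6 were lower, and the interaction was lower than 0 for 6. Without shNT_OHT replicate 1, 1 was higher in shNT_OHT, and both counts of 6 were again 6. Each count of 6 was 66.7% of the group, against 45.4% and 45.1% of all genes called in the same order. SF3A3, a subunit of the SF3a complex of the U2 snRNP, was at 121, 126 and 105 CPM in shNT, 128, 144 and 179 in shNT_OHT, 155, 140 and 150 in shCDK12, and 107, 110 and 120 in shCDK12_OHT. SF3B3, a subunit of the SF3b complex that holds the branch site, was at 313, 275 and 261 CPM in shNT, 362, 289 and 349 in shNT_OHT, 337, 287 and 314 in shCDK12, and 235, 234 and 224 in shCDK12_OHT. For both genes the shCDK12_OHT libraries lay below all shNT_OHT and shCDK12 libraries. The interaction was -0.82 ± 0.17 for SF3A3 (adjusted p = 0.000435) and -0.74 ± 0.15 for SF3B3 (0.000395).

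SF3A2, another SF3a subunit, was at 25.1, 15.4 and 21.1 CPM in shNT, 33.8, 29.7 and 24.1 in shNT_OHT, 18.1, 14.9 and 20.9 in shCDK12, and 13.2, 11.6 and 8.71 in shCDK12_OHT. Every shCDK12_OHT library was below every other. Its fall of 1.38 ± 0.23 on the log2 scale in shCDK12_OHT against shNT_OHT (adjusted p = 0.000815) was the largest of the 55 genes in that comparison. SF3A1 and SF3B2 took another course and were lower in both shRNA comparisons (-0.70 and -0.46 for SF3A1, -0.49 and -0.74 for SF3B2), with interactions that were not called. U2AF1 and U2AF2, the 2 subunits of U2AF, were higher in shCDK12 than in shNT (0.45 each) and lower in shCDK12_OHT than in shCDK12 (-0.51 and -0.24). SF3B1, the branch site protein most often mutated in myeloid neoplasms, was called in no comparison, with estimates from -0.13 to 0.10.

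SF3A1 was the single gene of the 55 that was higher in shCDK12_OHT than in shCDK12 (0.21 ± 0.08, adjusted p = 0.0486). The call was lost in DESeq2 (adjusted p = 0.0983), without shCDK12 replicate 2 or 3 and without any shCDK12_OHT replicate (0.0712 to 0.173), and the gene overlaps CCDC157. In shCDK12_OHT against shNT_OHT, SF3A1 lost its call without shCDK12_OHT replicate 2 or 3 (0.0566 and 0.0556), and SF3A3 without shNT_OHT replicate 3 or any shCDK12_OHT replicate (0.0625 to 0.116). In shNT_OHT against shNT, SF3A3 was called without shNT_OHT replicate 1 (0.00614) and SF3B3 without shNT_OHT replicate 2 (0.0382). In shCDK12 against shNT, SF3B3 was called without shNT replicate 1 (0.0477) or shCDK12 replicate 2 (0.0146). U2AF2 in shCDK12_OHT against shCDK12 lost its call without replicate 1 or 3 of either group (0.0779 to 0.166), and its interaction without shNT replicate 2 (0.051). SF3B4 in shCDK12_OHT against shCDK12 lost it without shCDK12 replicate 3 or shCDK12_OHT replicate 1 or 3 (0.0961 to 0.131).

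Of the 8 PRPF genes, 2 were higher in shNT_OHT, 3 were higher in shCDK12, and the interaction was lower than 0 for 5. Of them 2 were lower in shCDK12_OHT than in shNT_OHT, and 5 without shNT_OHT replicate 1, which left the counts of 2 and 5 in shNT_OHT and in the interaction at 2 and 5. Of all genes tested, 17.4% were called in shNT_OHT against shNT and 61.9% in shCDK12 against shNT. The shares were 45.1% in the interaction and 45.4% in shCDK12_OHT against shNT_OHT. PRPF19, the ubiquitin ligase of the complex that activates the spliceosome, was at 88.5, 72.8 and 72.7 CPM in shNT, 162, 112 and 140 in shNT_OHT, 142, 117 and 164 in shCDK12, and 78.1, 91.7 and 79.6 in shCDK12_OHT. The shNT and shCDK12_OHT libraries overlapped, and both lay below all libraries of the other groups. PRPF19 rose by 0.83 ± 0.16 in shNT_OHT (adjusted p = 0.00353) and by 0.88 ± 0.12 in shCDK12 (5.05e-07), and fell by 0.75 ± 0.15 in shCDK12_OHT against shNT_OHT (0.00212) and by 0.79 ± 0.11 against shCDK12 (9.39e-06). The interaction, -1.67 ± 0.21 (2.27e-06), was the largest of the 55 genes, and each of these calls held without any single library.

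PRPF38B, a spliceosomal protein with an SR-like tail, was at 211, 194 and 173 CPM in shNT, 255, 309 and 272 in shNT_OHT, 224, 246 and 208 in shCDK12, and 160, 167 and 158 in shCDK12_OHT. The shNT_OHT libraries were highest and the shCDK12_OHT libraries lowest, without overlap with any other group. The interaction was -1.07 ± 0.14 (adjusted p = 4.13e-06). PRPF4, a protein of the U4/U6 snRNP, was at 73.8, 85.9 and 60.1 CPM in shNT, 107, 108 and 82.4 in shNT_OHT, 155, 137 and 142 in shCDK12, and 102, 104 and 103 in shCDK12_OHT. The shCDK12 libraries were above all others, and the rise of 0.99 ± 0.11 against shNT (1.66e-08) was the largest of the 55 genes there. PRPF8, the scaffold of the catalytic core, PRPF6 and PRPF38A were called in no comparison.

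The rise of PRPF38B in shNT_OHT lost its call without shNT replicate 2 or 3 (adjusted p = 0.0763 and 0.0699), and that in shCDK12 without shNT replicate 2 or 3 or shCDK12 replicate 2 (0.0767, 0.0982 and 0.0501). PRPF31 in shCDK12_OHT against shCDK12 lost its call without shCDK12 replicate 3 (0.0801) or shCDK12_OHT replicate 2 (0.0687). The interactions of PRPF3 (-0.41, adjusted p = 0.0365) and PRPF31 (-0.77, adjusted p = 0.0331) were lost in 6 and 8 of the 12 fits without a library, up to 0.0987.

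All 4 U1 A and Sm genes had an interaction lower than 0 and were lower in shCDK12_OHT than in shCDK12. In shNT_OHT 1 was higher, and 2 without shNT_OHT replicate 1. Of all genes tested, 45.1% were called in the interaction, 49.0% in shCDK12_OHT against shCDK12 and 17.4% in shNT_OHT against shNT. SNRPB, which encodes the Sm B proteins, was at 104, 116 and 89.7 CPM in shNT, 153, 137 and 191 in shNT_OHT, 104, 119 and 118 in shCDK12, and 71.3, 90.3 and 70.0 in shCDK12_OHT. The shNT_OHT libraries were above all others. It rose by 0.64 ± 0.15 with OHT in shNT libraries (adjusted p = 0.01) and fell by 0.59 ± 0.10 with OHT in shCDK12 libraries (9.86e-05), and the interaction was -1.26 ± 0.19 (1.49e-05). The rise with OHT lost its call without shNT replicate 1 or 3 or shNT_OHT replicate 3 (0.055, 0.0654 and 0.0632).

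SNRPD3, another Sm protein, was at 58.8, 53.7 and 46.6 CPM in shNT, 53.6, 90.7 and 90.5 in shNT_OHT, 86.2, 109 and 105 in shCDK12, and 59.9, 72.4 and 80.5 in shCDK12_OHT. Replicate 1 of shNT_OHT stood among the shNT libraries, and without it SNRPD3 was called in shNT_OHT against shNT (adjusted p = 0.000692) and in shCDK12_OHT against shNT_OHT (0.0238). It rose by 0.94 ± 0.12 in shCDK12 (1.99e-07), and the interaction was -1.09 ± 0.24 (0.0008). SNRPD3 overlaps GUCD1. SNRPA, the U1 A protein that binds a stem-loop of U1 RNA, was at 74.7, 71.4 and 66.7 CPM in shNT, 96.5, 60.2 and 85.0 in shNT_OHT, 60.2, 55.4 and 52.9 in shCDK12, and 37.9, 39.0 and 33.0 in shCDK12_OHT. The shCDK12_OHT libraries were below all others, by -1.17 ± 0.17 against shNT_OHT (0.000351) and -0.64 ± 0.11 against shCDK12 (9.39e-05). Its lower level in shCDK12 against shNT (-0.31, 0.0337) was not called without shNT replicate 1 or 2 or shCDK12 replicate 2 or 3 (0.0609 to 0.148).

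The enzymes that modify splicing factors were not alike. Of the 5 genes, 2 were higher in shNT_OHT (3 without shNT_OHT replicate 1), and the interaction was lower than 0 for 2 (3 without it) and higher for 1. These were 40.0% and 60.0% called, against 17.4% and 45.1% of all genes tested. PRMT1, the main asymmetric arginine methyltransferase, was at 38.9, 44.9 and 38.6 CPM in shNT, 84.3, 69.3 and 90.5 in shNT_OHT, 71.1, 77.7 and 71.4 in shCDK12, and 50.5, 57.0 and 54.1 in shCDK12_OHT. The shNT libraries were below all others, and shCDK12_OHT lay between them and the rest without overlap. Its rise of 1.00 ± 0.17 in shNT_OHT (adjusted p = 0.0015) was the largest of the 55 genes, and it was 0.88 ± 0.13 in shCDK12 (1.45e-06), with an interaction of -1.52 ± 0.18 (1.17e-06). PRMT5, the symmetric methyltransferase of the Sm proteins, was at 57.6, 64.8 and 51.6 CPM in shNT, 93.7, 88.3 and 120.3 in shNT_OHT, 88.0, 91.0 and 89.8 in shCDK12, and 61.7, 68.6 and 79.8 in shCDK12_OHT. It rose in shNT_OHT (0.80 ± 0.16, 0.00496) and in shCDK12 (0.65 ± 0.12, 2.84e-05), and the interaction was -1.22 ± 0.19 (2.76e-05). WDR77, its partner, was instead lower in shCDK12 than in shNT (-0.51, 0.000439) and in shCDK12_OHT than in shNT_OHT (-0.89, 0.00243).

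The CLK kinases phosphorylate SR proteins and regulate themselves by retained introns. CLK1 was higher in shCDK12 than in shNT (0.48, adjusted p = 0.000235), with no other call. CLK4 was the single gene of the 55 with an interaction above 0 (0.90 ± 0.29, adjusted p = 0.0153), at 39.7 ± 8.03 CPM in shNT (SD, n = 3), 24.3 ± 5.96 in shNT_OHT, 28.2 ± 6.33 in shCDK12 and 36.0 ± 4.54 in shCDK12_OHT. None of its 4 pairwise comparisons was called (adjusted p = 0.0508 to 0.133), and the interaction was lost without shNT replicate 3 (0.0537). PRMT5 in shCDK12_OHT against shNT_OHT (-0.55) lost its call without shNT_OHT replicate 3 or shCDK12_OHT replicate 1 or 2 (0.0521, 0.0851 and 0.069).

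Summed over the 55 genes, newly made RNA stood at 9408 ± 355 CPM in shNT (SD, n = 3), 11222 ± 679 in shNT_OHT, 11178 ± 696 in shCDK12 and 9100 ± 323 in shCDK12_OHT. The 3 libraries of each of the middle groups were above the 6 others. The 12 SR genes summed to 2423, 3202 and 3101 CPM in shNT_OHT replicates 1, 2 and 3, with replicate 1 below every shNT library (2511 to 2747). In shCDK12 they summed to 2997, 4043 and 3394, so the spread of the SR genes was wide in both groups.

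Per kilobase of exon of the MANE Select transcript, the level in shNT ran from 7.49 CPM for HNRNPM to 299.6 CPM for HNRNPF. HNRNPL (139 ± 9.63), SRSF5 (130 ± 10.2), SRSF3 (128 ± 8.56) and SRSF6 (127 ± 5.90) followed HNRNPF (SD, n = 3), and the order of these 4 was within their spread. HNRNPD (8.89) and SNRPD1 (9.94) were next to HNRNPM at the low end. Newly made RNA includes unspliced transcripts, so exon length is not the whole template that was counted if intronic reads were kept. Across the 55 genes, the log2 fold change with OHT in shCDK12 libraries had r = 0.39 with the log10 span of the transcript (Spearman's rho 0.37), so the shorter genes tended to have the larger falls. For OHT in shNT libraries r was -0.22, and for the interaction 0.35. The points share the same libraries, and these values are a description.

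Another 131 splicing genes, chosen by their place in the machinery, were read beside the 55. In shNT_OHT against shNT, 18 of 119 tested were higher and 3 lower (median 0.12), in shCDK12 against shNT 58 of 127 were higher and 19 lower (0.20), and in shCDK12_OHT against shNT_OHT 11 of 124 were higher and 41 lower (-0.21). In shCDK12_OHT against shCDK12, 8 of 128 were higher and 63 lower (-0.25), and the interaction was above 0 for 7 and below 0 for 55 of 125 (-0.48). The shares called were 17.6%, 60.6%, 41.9%, 55.5% and 49.6% in this order. Among all genes tested they were 17.4%, 61.9%, 45.4%, 49.0% and 45.1%. The Sm, LSM, U1 and SMN genes of this list had the lowest median interaction of its 6 groups, -0.75, with 13 of 23 lower and 0 higher. The count of 21 in shNT_OHT against shNT was 6, 5 and 8 without shNT replicate 1, 2 and 3 and 30 and 12 without shNT_OHT replicate 1 and 3. The count of 52 in shCDK12_OHT against shNT_OHT was 31 and 32 without shCDK12_OHT replicate 1 and 2, and 68 without shNT_OHT replicate 1, which gave 71 calls in the interaction in place of 62.

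GEMIN4, of the SMN complex that loads Sm rings, was at 194, 197 and 193 CPM in shNT, 385, 323 and 367 in shNT_OHT, 286, 229 and 265 in shCDK12, and 181, 192 and 166 in shCDK12_OHT. It had the largest rise with OHT of the 119 genes (0.88 ± 0.12, adjusted p = 0.000198). SNU13, a protein of the U4 snRNP and of snoRNPs, had the largest rise in shCDK12 of the 127 genes (2.83-fold, adjusted p = 1.36e-12). EIF4A3, the helicase of the exon junction complex, rose in both (0.77 and 0.94) and had an interaction of -1.64 ± 0.16 (9.31e-08). MBNL2, a regulator of tissue-specific exons, went the other way and fell by 1.00 on the log2 scale in shNT_OHT (adjusted p = 0.0082). It rose by 1.05 in shCDK12_OHT against shCDK12 (adjusted p = 6.14e-08), with an interaction of 2.04 ± 0.22 (3.77e-07).

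TIA1, which binds U-rich introns, was lower in shNT_OHT by 1.00 ± 0.32 (adjusted p = 0.0432). Its shNT_OHT libraries stood at 9.71, 28.9 and 33.4 CPM, against 43.6 to 49.2 in shNT. In shCDK12, SNRNP25 of the minor spliceosome (1.33 ± 0.25) and LSM3 of the U6 ring (1.23 ± 0.16) followed SNU13. SNRNP27, of the tri-snRNP, was higher (1.88 ± 0.35, adjusted p = 0.00146) and CLK2 lower (-1.21 ± 0.14, adjusted p = 8.15e-05) in shCDK12_OHT than in shNT_OHT. SNRPF, an Sm protein, and LSM5, of the U6 ring, were lower in shCDK12_OHT than in shCDK12 (-1.69 ± 0.27 and -1.10 ± 0.15), and SNRPF, at 2.72 to 14.4 CPM over the 12 libraries, had an interaction of -2.33 ± 0.55 (0.00176).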

How the data were processed

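The data are raw counts per gene, which the authors deposited by Entrez identifier with replicates kept apart. The submitters' processing notes name STAR 2.7.5c, featureCounts 1.4.5-p1 and hg19, and the library kit was stranded. The annotation, the strand setting and the handling of mouse reads are not given in the sources used here. Per the labels, 40 µg of human RNA was joined by 10 µg from mouse before capture. The table has no mouse rows, so a change in total newly made RNA cannot be seen. Symbols came from RefSeq (GRCh38.p14) for 23284 of 23434 genes, and spans from GENCODE MANE Select transcripts.

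Counts were tested with edgeR 4.0.16 (R 4.3.3), with TMM, the quasi-likelihood F test and Benjamini-Hochberg adjustment at 0.05. Each pairwise comparison was fitted on its own 6 libraries and the interaction on all 12, after genes whose normalized counts averaged 32 or less were dropped. All 55 genes passed this filter in every comparison. CPM used TMM factors of all 12 libraries, and promoter sequences are from RefSeq. The script was tested on simulated data. The alternatives were DESeq2 1.42.0, upper-quartile scaling, other filters, a replicate block, thinned counts, a joint fit of the 12 libraries, and dropping libraries one by one, which was extended after seeing the data to counts over pairs of comparisons and by role.

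The 55 genes and the lists were chosen with earlier results of these data known. Values in every library are given, within each role, for the 3 (SR, hnRNP) or 2 (other roles) genes with the smallest interaction p, and for the 2 called genes with the largest change in each pairwise comparison. Of the other splicing genes, the 3 called with the largest change in each comparison are named. Library totals limit the precision of low genes, and p-values measure the spread between these libraries, which may be technical.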

Additional observations from a re-analysis of the deposited data

Results flagged for a closer look

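The labels of the shCDK12 and shCDK12_OHT libraries were taken as given and were not tested. By the interaction term, the OHT response differed between the shNT and the shCDK12 libraries for 37 of the 55 genes, 36 of them lower. Of those named by role, the interaction on the log2 scale was -1.05 for SRSF7, -1.14 for SRSF2 and -1.17 for SRSF1 among the SR genes, and -1.21 for HNRNPAB, -0.95 for HNRNPU and -0.79 for HNRNPF among the hnRNP genes. It was -0.74 for SF3B3, -0.82 for SF3A3, -1.67 for PRPF19, -1.07 for PRPF38B, -1.26 for SNRPB and -1.09 for SNRPD3. It was -1.52 for PRMT1 and -1.22 for PRMT5. Each of these 14 interactions passed an adjusted p of 0.05 in every alternative run.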

How the results depend on the processing

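Of 163 values for single genes, 109 kept their direction and their side of the threshold in every alternative, 42 lost a call in at least one, 9 gained one, and 3 changed sign, none of which was called. These 3 were SF3A2 in shCDK12 against shNT without shNT replicate 1 (0.040, range without one library -0.38 to 0.040), PRPF4 in shCDK12_OHT against shNT_OHT without shNT_OHT replicate 3 (-0.11, range -0.11 to 0.14), and CDK12 in shCDK12 against shNT thinned to the smallest library total (0.0037) or without shCDK12 replicate 2 (0.0066, range -0.10 to 0.0066). In one fit of all 12 libraries, 25 of the 55 genes were called in shNT_OHT against shNT, 24 higher and 1 lower, and 32 of the other splicing genes. The cause was not tested. Shares over all genes in the alternative fits are not given here, so these counts cannot be set against them. The other splicing genes called in shCDK12 against shNT were 49 with thinned counts, and in shCDK12_OHT against shCDK12 they were 43 with thinned counts and 47 in one fit of all libraries. Without one library at a time, the 55 genes gave 5 to 20 calls in shNT_OHT against shNT, 30 to 36 in shCDK12 against shNT, 18 to 33 in shCDK12_OHT against shNT_OHT, 31 to 40 in shCDK12_OHT against shCDK12, and 33 to 40 in the interaction. The other splicing genes gave 5 to 30, 61 to 77, 31 to 68, 52 to 76 and 54 to 71 calls. In shCDK12_OHT against shNT_OHT, 1 or 2 of the 55 genes were called higher without a filter, with the stricter filter, with the block or with thinned counts. Replicate numbers were not taken as pairs in the main fits. Of 18 same-numbered pairs, 3 had a correlation of deviations above 0.1 (median 0.031). Of the 36 pairs with different numbers, 0 were above 0.1 (median -0.013). The highest same-numbered values were those of shNT_OHT with shCDK12, at 0.29 for replicate 1 and 0.32 for replicate 2. Replicate 1 of shNT_OHT with replicate 2 of shCDK12 had -0.36, and replicate 2 of shNT_OHT with replicate 1 of shCDK12 had -0.24. What these libraries share was not tested. With the replicate number as a block, 10, 38, 26, 37 and 38 of the 55 genes were called in the same order of comparisons.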
